A study of Mus musculus with 3 samples.

Results

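Runx1 and Bach2 are 2 long genes of mouse T cells that carry many phospho-STAT3 sites in a row. They were selected on the number and read counts of those sites in the phospho-STAT3 library, so the number, crowding and strength of the sites are given below as a description, with no test. The members are all reads of 3 libraries in a window of 260 kb on chromosome 16 from 92590000 to 92850000 (Runx1, minus strand, distal start near 92826000) and a window of 380 kb on chromosome 4 from 32310000 to 32690000 (Bach2, plus strand), on mm9. The windows held 46 of the 26909 phospho-STAT3 sites of the genome, 16 at Runx1 and 30 at Bach2. They also held 8 of 10971 H3K4me3 regions with at least 50 reads in both H3K4me3 libraries together, 2 at Runx1 and 6 at Bach2. Such regions are called marked.

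The 3 libraries were chromatin immunoprecipitations followed by sequencing, all from T cells of mice with the conditional allele Stat3fl/fl and FoxP3-GFP. Wild-type cells had no Cre and gave 1 H3K4me3 and 1 phospho-STAT3 library, while STAT3-deficient cells also had CD4-Cre, which is active in T cells and removes the floxed part of Stat3 there, and gave 1 H3K4me3 library. Naive CD4+CD44-CD62L+ cells were sorted and kept for 72 h on plate-bound anti-CD3 and anti-CD28 with IL-6 (10 ng/ml), TGF-b (2.5 ng/ml) and antibodies that block IL-2, IL-4 and IFN-g, the mixture that drives naive cells to the Th17 state, and IL-6 was given again for 1 h. The phospho-STAT3 antibody is labelled Ser727. The sources used here give neither the age of the mice nor how many were pooled per library. The Th17 identity was not checked against marker genes, because no gene annotation of mm9 was used here.

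STAT3 is the transcription factor that IL-6 activates: it dimerises, enters the nucleus and binds the palindrome TTCNNNGAA (N is any base). RUNX1 is the DNA-binding partner of CBF-beta in core-binding factor. It is needed for T cell development and can work together with RORgt, the lineage factor of Th17 cells, at the Il17a gene. Runx1 is transcribed from a distal and a proximal promoter that give proteins with different N-termini. BACH2 is a repressor of the basic leucine zipper family that pairs with small Maf proteins and competes with AP-1 factors. In T cells it holds back effector genes and favours regulatory and long-lived cells. H3K4me3 is a histone mark found at the starts of active genes.

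The promoters in the RefSeq table are printed here because H3K4me3 around gene starts is compared between genotypes below, and because they show how unlike the starts of these genes are in sequence. Each run holds the 250 bases before a start, 5′ to 3′ on the gene's strand, in GRCm38.p6, with matches to the motifs named below in capitals. GRCm38.p6 is another build than the mm9 of the reads, so these coordinates cannot be set beside those of sites and regions, and the proximal Runx1 start and the Bach2 start were not placed on mm9.
Runx1 distal promoter, chr16:92826075-92826324, minus strand: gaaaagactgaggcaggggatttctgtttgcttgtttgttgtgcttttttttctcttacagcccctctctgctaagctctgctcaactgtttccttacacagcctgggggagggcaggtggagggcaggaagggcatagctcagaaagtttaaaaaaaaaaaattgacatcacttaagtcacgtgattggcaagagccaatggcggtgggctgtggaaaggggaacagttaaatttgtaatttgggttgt
Runx1 proximal promoter, chr16:92697330-92697579, minus strand: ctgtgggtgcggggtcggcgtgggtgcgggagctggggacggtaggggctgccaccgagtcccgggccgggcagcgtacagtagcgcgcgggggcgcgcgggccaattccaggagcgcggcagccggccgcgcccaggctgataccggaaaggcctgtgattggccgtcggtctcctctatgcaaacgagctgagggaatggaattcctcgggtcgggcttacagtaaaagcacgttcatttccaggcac
Bach2 promoter, chr4:32417185-32417434, plus strand: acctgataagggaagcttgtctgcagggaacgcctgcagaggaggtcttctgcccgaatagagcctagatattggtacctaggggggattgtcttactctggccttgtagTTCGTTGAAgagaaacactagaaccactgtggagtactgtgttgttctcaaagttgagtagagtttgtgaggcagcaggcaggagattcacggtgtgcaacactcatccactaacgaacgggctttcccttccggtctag

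Over the full 300 bases of the table (250 before and 50 from the start on), G and C made up 45% of the Runx1 distal promoter, with 2 CpG dinucleotides. The proximal promoter had 69% and 35 CpG, and the Bach2 promoter 50.3% and 7 CpG. The median of 32851 promoters was 52.7% and 7 CpG. On both strands, the STAT motif TTCNNNGAA matched once, in the Bach2 promoter at -140 from the start (TTCGTTGAA, in capitals above), and 8.30% of all promoters of this length hold it. The RUNX motif TGTGGT matched 2 times in the Runx1 distal promoter, at 29 and 37 bases after the start and so beyond the printed run, and 16.8% of all promoters hold it. The AP-1 motif TGANTCA, a core of the elements that BACH2 also binds, matched in none of the 3 promoters and in 7.81% of all. A match describes letters only, and no match overlapped one of another motif.

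Depth was 12281399 reads for wild-type H3K4me3, 12075963 for STAT3-deficient H3K4me3 and 10127075 for phospho-STAT3. With 1 library per group there is no replicate check and no test between genotypes. All intervals are exact 95% intervals of the counting error, and reads without molecular identifiers may be less independent than they assume. An input library was not analysed here. Genotype ratios are log2 of STAT3-deficient over wild-type H3K4me3 reads with the median of all marked regions set to 0, which hides a change common to all of them. Scaling by library totals instead adds 0.32 to each log2 ratio, which turned the direction at 3 of the 8 marked regions, all in Bach2 (3 lay above 0 by the first scaling and 6 by library totals).

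At Runx1, phospho-STAT3 sites lined the 5′ part of the gene. Of the 16 sites, 12 lay in a row of 83.8 kb that reached to within 2 kb of the gene start, from 92740350 to 92824149. A close pair stood apart from 92696800 to 92697799, about 129 kb into the gene, and the last 2 sites were more than 190 kb in. A site is a stretch of 200 bp windows with at least 10 reads and a Poisson p under 1e-08 against the denser of genome and 10 kb surroundings. The surroundings include the site itself. The read count of its highest window less the reads expected there gives the excess. Strong sites are the 25% with the highest excess genome-wide, from 26.1 reads upwards. At Runx1, 13 of 16 sites were strong, against 25% of all sites by construction. Sites in dense surroundings need a larger excess to be called at all, which raises the strong share among them. When only windows with at least 20 reads or a Poisson p under 1e-12 were called, the top 25% began higher and 5 Runx1 sites were strong under either rule.

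**Figure D1:**
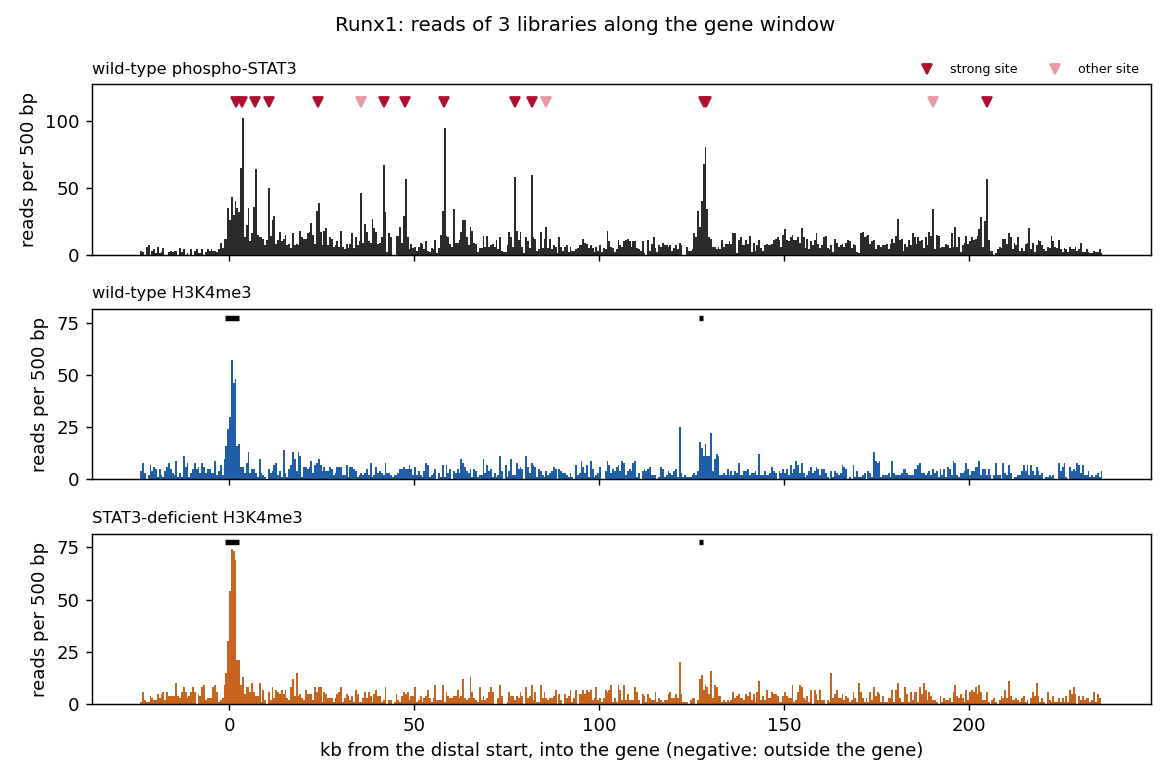
Reads per 500 bp (y) along the Runx1 window (x, kb from the distal start into the gene) in the 3 libraries. Triangles mark the 16 phospho-STAT3 sites (dark for strong) and black bars the 2 marked H3K4me3 regions. Of the sites, 12 lie in the first 85.5 kb of the gene, and the tallest H3K4me3 peak in both genotypes sits at the distal start.

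The strongest Runx1 site lay 3.55 kb into the gene, from 92822150 to 92822699, with 71 reads (55.5 to 89.6) in its highest window, 5.41-fold over the local expectation. It ranked 849 of 26909 by excess. The site from 92767600 to 92768149, 58.1 kb into the gene, followed closely with 61 reads (46.7 to 78.4), and their intervals overlapped widely. The close pair about 129 kb in held 60 and 53 reads, and the site 41.9 kb in, from 92783900 to 92784299, held 56. These 5 sites cannot be put in order at this depth. A step down came the sites 7.11 kb, 77.3 kb and 205 kb into the gene, with 44, 37 and 36 reads, at 92818750, 92748550 and 92621000. The other sites held between 22 and 40 reads. Reads came from both strands at all 16 sites, from 16 of 40 on the plus strand to 35 of 53. The strand offset, the distance from the middle of the plus-strand reads to that of the minus-strand reads, was 54 to 141 bp.

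At Bach2, in a longer window, the sites were more numerous, with 7.89 per 100 kb against 6.15 at Runx1. The highest of them were taller, and the sites fell into 4 groups parted by more than 20 kb. The first group of 12 sites ran over 57.7 kb from 32336750 to 32394449, and a second of 5 sites from 32418000 to 32451049. The next 9 sites, all of them strong, ran over 54 kb from 32478150 to 32532149. The last 4 sites lay from 32673600 to 32688449, at the far end of the window, where it was not determined here which of them lie past the end of the gene. Before that last group, a stretch of 141 kb had no site. Of the 30 sites, 19 were strong (63.3%), a lower share than at Runx1 (81.25%) and against 25% of all sites by construction. The spacing for grouping was chosen after the positions were seen.

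**Figure D2:**
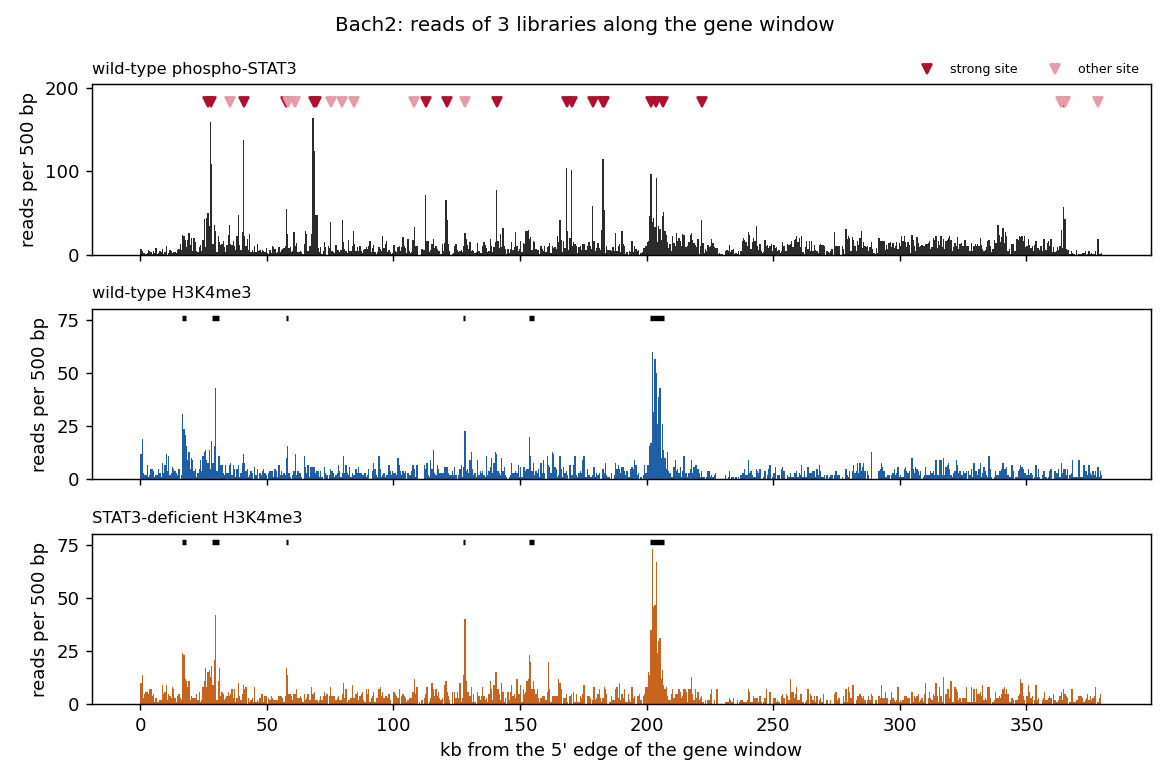
Reads per 500 bp (y) along the Bach2 window (x, kb from its 5′ edge) in the 3 libraries. Triangles mark the 30 phospho-STAT3 sites (dark for strong) and black bars the 6 marked H3K4me3 regions. The strongest site, at 32378150, has 22 H3K4me3 reads in each genotype within 1 kb, and the stretch of 141 kb without sites still carries reads in the phospho-STAT3 library.

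The strongest Bach2 site, from 32378150 to 32378849, held 140 reads (118 to 165), 12.6-fold over the local expectation, and ranked 63 of 26909. The site from 32350600 to 32351049 came next with 109 reads (89.5 to 131), 13.3-fold, at rank 162. Each held more reads than any site of Runx1, whose upper bound was 89.6, though the lower bound of the second just overlaps it. The neighbours from 32478150 to 32478649 and from 32480150 to 32480599, with 86 and 81 reads, and the site from 32337500 to 32338449, with 83, had intervals that overlapped widely. The remaining 3 of the 8 sites with the largest excess held 69, 63 and 58 reads, at 32379300, 32492400 and 32422600. Marked regions held 7 Bach2 sites, among them 3 lower ones with 42, 21 and 20 reads, at 32367500, 32368200 and 32438300. The site of lowest excess in the window, from 32688150 to 32688449, had 17 reads, 5 of them on the plus strand. Its expectation of 0.958 was that of the genome, as its surroundings were no denser. That made its fold, 17.7, the highest of the window. Just under and over the limit for a strong site were a Bach2 site with an excess of 25.4 reads and a Runx1 site with 27.0.

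The sites of both genes were tall but stood on raised ground. The median site held 37.5 reads at Runx1 and 42.5 at Bach2, against 21 over all sites. The median fold over the local expectation ran the other way, 5.57 at Runx1 and 6.48 at Bach2 against 10 over all sites. None of the 16 Runx1 sites and 6 of the 30 Bach2 sites reached the median fold of all sites, which 50.1% of all sites reach. The reads expected locally in a window were 6.18 and 5.61 at the median, against 2.22 over all sites. Because sites are called against the local density, a site on denser ground needs more reads and a larger excess, but a lower fold, to be called. How far this accounts for the read counts, folds and strong shares of these sites was not tested. Gaps between neighbouring sites had a median of 5.75 kb at Runx1 and 5.15 kb at Bach2, against 22.8 kb over the genome. Of all genome stretches of the same length, taken every 10 kb, 0.918% held at least as many sites as Runx1 and 0.0285% as many as Bach2.

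The 10 kb surroundings behind each local expectation include the reads of the site itself and of its neighbours. Apart from those, a raised signal was spread over much of both windows. With sites and H3K4me3 regions left out, the phospho-STAT3 library had 17.6 reads per kb in the Runx1 window and 20.04 in the Bach2 window, 3.67 and 4.18 times its density over the mappable genome. The H3K4me3 libraries, measured in the same bases, lay at 1.24 to 1.39 times theirs. When 1 kb either side of each site and region was left out as well, the phospho-STAT3 values were 3.36 and 4.10 times the genome density. The stretch of Bach2 without any site shows the signal on its own: over 141 kb it held 3256 phospho-STAT3 reads, 23.0 per kb (22.2 to 23.8), 4.80 times the genome density. The wild-type and STAT3-deficient H3K4me3 libraries were at 1.01 and 1.104 times theirs there. The longest stretch of Runx1 without a site, 60.8 kb from 92636050 to 92696799, had 18.7 phospho-STAT3 reads per kb (17.6 to 19.8), 3.89 times the genome density. This measure was chosen after the values were seen.

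The phospho-STAT3 signal changed steeply at the Runx1 start and at the first marked region of Bach2. In the 20 kb of Runx1 up to the distal start, sites included, there were 921 phospho-STAT3 reads, 46.0 per kb (43.1 to 49.1). Beyond the start, from 92830000 to 92849999, there were 98, or 4.90 per kb (3.98 to 5.97), close to the genome density and 9.40-fold lower. With sites and regions left out, the 20 kb from 92810000, which run past the start, had 29.4 per kb against those 4.90. For H3K4me3, the 20 kb up to the start exceeded the 20 kb beyond it by 2.23-fold (wild-type) and 2.97-fold (STAT3-deficient), regions included. With sites and regions left out, the 20 kb from 92810000 had 9.44 wild-type and 10.8 STAT3-deficient H3K4me3 reads per kb. Beyond the start these were 8.95 and 8.70. At Bach2, phospho-STAT3 rose from 8.07 reads per kb (6.76 to 9.56) before the first marked H3K4me3 region to 47.8 (44.8 to 50.9) in the 20 kb from it on, 5.92-fold. In 5 kb bins with sites and regions left out, that step went from 7.6 to 25.6 per kb between neighbouring bins at 32325000. At the far end of the window, the bins fell from 25 per kb at 32665000 to 12.6, 9.36, 3.4 and 2.77. The wild-type H3K4me3 library moved between 4.4 and 7.4 per kb over those bins. In the Runx1 window, at the end away from the distal start, phospho-STAT3 bins rose from 4.4 per kb at 92590000 to 8.8 and 13.6. With no input library, what the spread signal is made of was not tested.

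**Figure D3:**
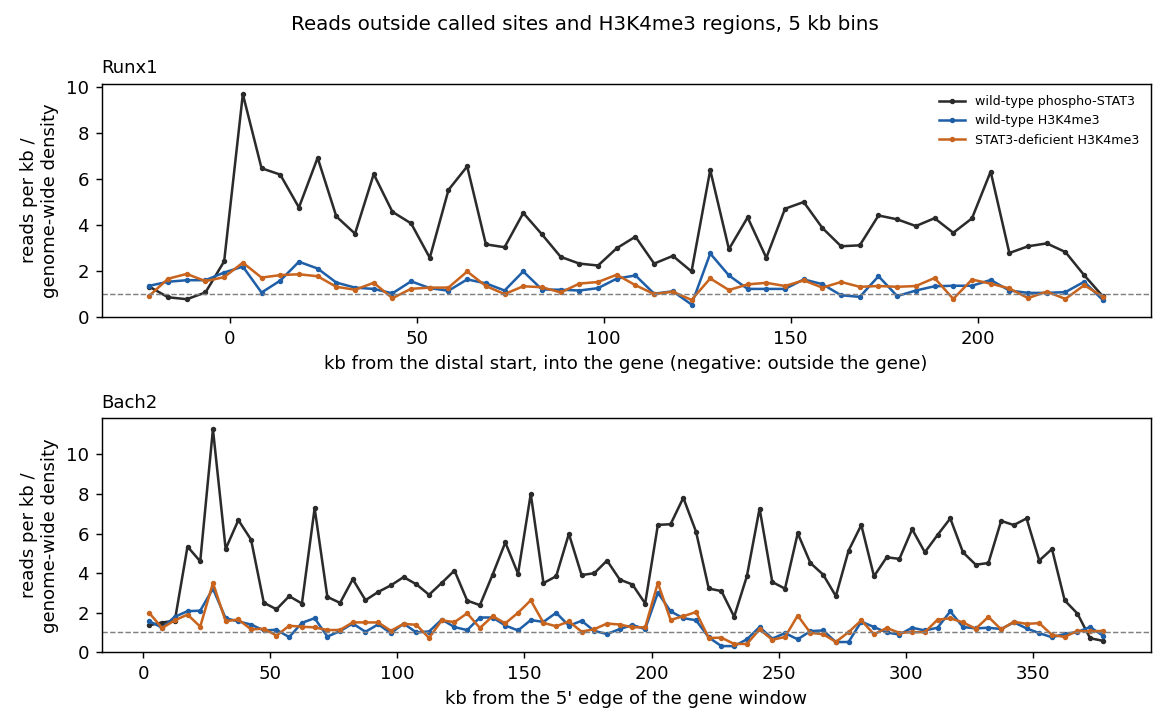
Reads per kb outside called sites and H3K4me3 regions, divided by each library's genome-wide density (y), in 5 kb bins along both windows (x). The dashed line is the genome density. The phospho-STAT3 line is raised over much of both windows (3.67 times for the Runx1 and 4.18 times for the Bach2 window) and comes down to about the dashed line outside the Runx1 start and at the far end of the Bach2 window, where it no longer exceeds the H3K4me3 lines. It is also near the dashed line in the outermost bin at the other end of the Runx1 window (4.4 reads per kb).

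H3K4me3 differed by less than 2-fold between genotypes at the main region of each gene, and the size of the difference depended on the scaling. The Runx1 region with the most reads, from 92823200 to 92826999, contains the distal start. Wild-type reads numbered 253 and STAT3-deficient reads 353, which gave a log2 ratio of 0.18 (-0.05 to 0.42), and 0.50 (0.27 to 0.74) by library totals. The interval includes no difference under the first scaling and lies above it under the second. Calling regions from wild-type reads only gave 0.28 (0.04 to 0.53), and from STAT3-deficient reads only 0.15 (-0.10 to 0.39). Both calls gave the same span with the same 236 and 337 reads, so only the median used for scaling differed. Among marked regions the main Runx1 region was 93rd of 10971 by reads. The Bach2 region with the most reads lay 186.7 kb downstream of the first marked region, from 32511200 to 32516999. It spanned 5800 bp and ranked 39 by reads and 56 by width. With 383 wild-type and 403 STAT3-deficient reads its log2 ratio was -0.22 (-0.43 to -0.02), and by library totals 0.10 (-0.11 to 0.30), so its direction turned with the scaling. Counts near its sites differed in direction. Within 1 kb of its first site, at 32511350, there were 102 and 146 reads, and within 1 kb of its last, at 32516400, there were 58 and 44. The whole region less the first span was -0.44 (-0.88 to -0.01). Less the span of the middle site, at 32513450, it was -0.02 (-0.40 to 0.37), and less the last span 0.47 (-0.16 to 1.11). The last 2 intervals include no difference. All 3 spans share reads with the region, which these intervals do not allow for, and the first and last also reach past its edges. The interval of the region itself included no difference when only wild-type reads were used to call regions (-0.41 to 0.01) and when reads were not moved towards the fragment centre (-0.40 to 0.03).

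**Figure D4:**
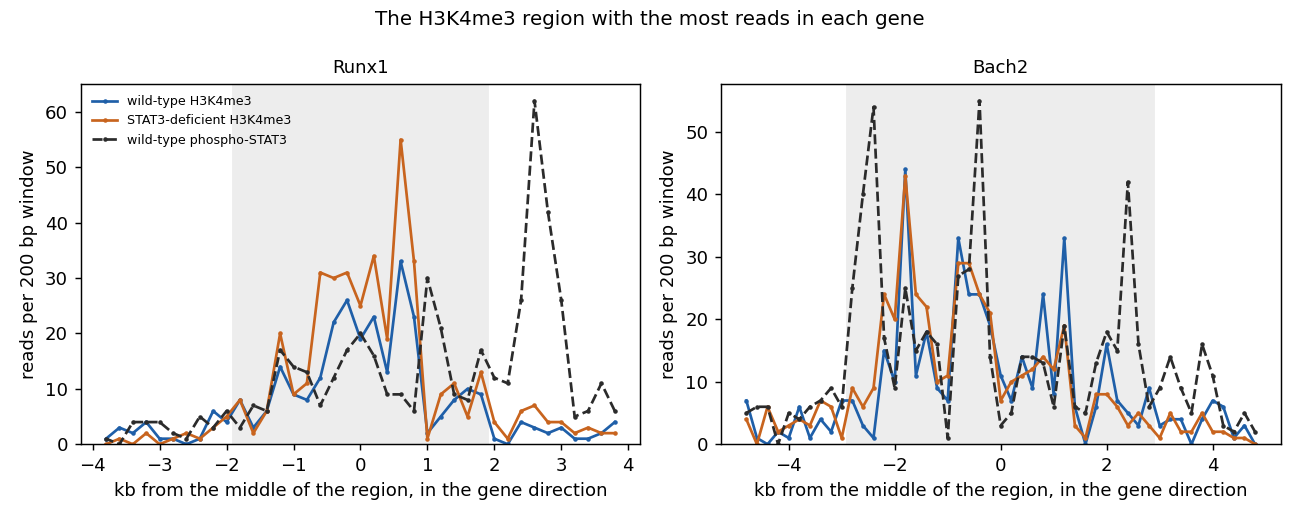
Reads per 200 bp window (y) across the H3K4me3 region with the most reads in each gene (grey), with 2 kb either side (x, kb from its middle in the direction of the gene). The highest H3K4me3 window is the same in both genotypes in each gene, and the Runx1 phospho-STAT3 peak inside the region (30 reads) falls on the window where H3K4me3 drops to 2 and 1 reads.

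At some sites in these regions, H3K4me3 reads were few under the phospho-STAT3 peak. At Runx1, the site from 92823900 to 92824149 lay 1.98 kb into the gene. Its window from 92824000 to 92824199 held 30 phospho-STAT3 reads but 2 wild-type and 1 STAT3-deficient H3K4me3 reads, while the next 200 bp towards the start held 23 and 33. The strongest Runx1 site sat just past the edge of the region, 501 bp from it. The Bach2 region held 3 sites. At its 5′ edge, the window from 32511600 to 32511799 had 54 phospho-STAT3 reads with 1 wild-type and 9 STAT3-deficient H3K4me3 reads. At its 3′ end, the window from 32516400 to 32516599 had 42 with 5 and 3. H3K4me3 was as thin in the windows either side, with 7 and 6 reads before it and 3 and 5 after it. The low count there was thus not confined to the peak. The site in the middle was different: the window from 32513600 to 32513799 had 55 phospho-STAT3 reads on 24 H3K4me3 reads of each genotype. At the 5′ edge of the Bach2 region the STAT3-deficient count of 9 was near its median of 11 per window in the region, so H3K4me3 was not low in both genotypes there. Windows were picked here after their values were seen.

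Of the 8 marked regions of both genes, 0 passed the size rule of at least 2-fold with an interval that excludes no change, which 2.17% of all marked regions pass (1.01% higher and 1.16% lower in STAT3-deficient cells). Low counts widen the intervals, and 5 of the 8 held fewer than 100 reads in each library, at widths of 800 to 1800 bp. An interval that excluded no change was found for 3 of the 8, against 11.5% of all marked regions. All 3 were in Bach2, 2 of them lower and 1 higher in STAT3-deficient cells, against 5.69% and 5.83% of all marked regions. The first, from 32326600 to 32328199, is the marked region nearest the 5′ edge of the window, where the spread phospho-STAT3 signal began. There were 85 reads in wild-type and 64 in STAT3-deficient cells, with a log2 ratio of -0.71 (-1.20 to -0.22), and -0.39 (-0.88 to 0.10) by library totals. The second spanned 32437600 to 32438399 and went from 24 reads to 50, which is a log2 ratio of 0.76 (0.03 to 1.53), and 1.08 (0.35 to 1.85) by library totals, where it passed the size rule, as 3.4% of all marked regions do by that scaling. The last is the main region given above.

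**Figure D5:**
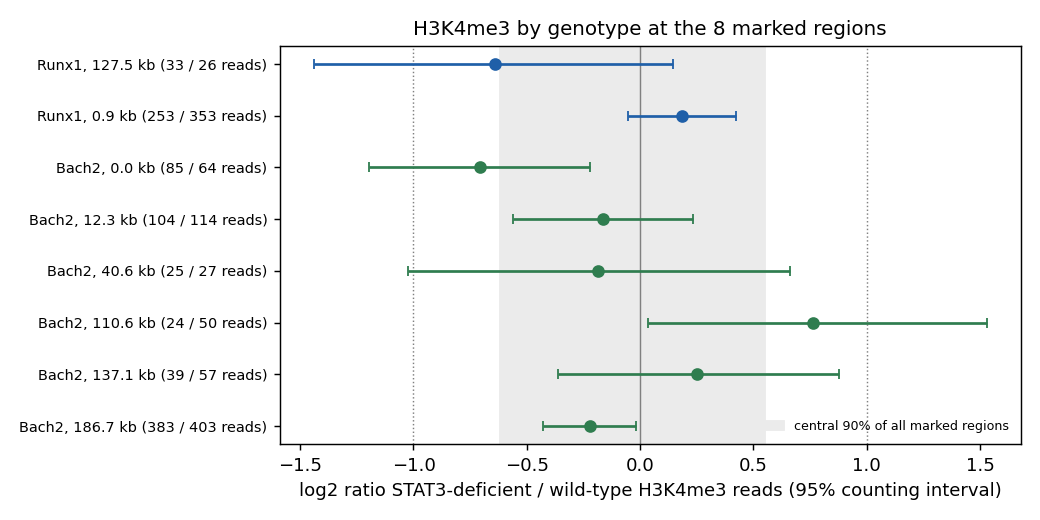
Log2 ratio of STAT3-deficient over wild-type H3K4me3 reads with its 95% counting interval (x) at the 8 marked regions (y, with kb from the distal start of Runx1 or from the first marked region of Bach2, and reads of wild-type and STAT3-deficient cells). Dotted lines mark 2-fold and grey the central 90% of all marked regions. The Bach2 region at 0.0 kb lies lowest (-0.71) and that at 110.6 kb highest (0.76).

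Ratios within Bach2 could be set against each other free of the scaling. The region at 32437600 exceeded the first region at 32326600 by 1.46 log2 units (0.57 to 2.38) and the main region at 32511200 less that at 32437600 was -0.98 (-1.78 to -0.22). Of the 15 pairs of Bach2 regions, 4 had an interval that excluded no difference. Those intervals are not corrected for the 15 comparisons and hold no variation between cultures. The regions from 32338200 to 32341199 (104 and 114 reads), 32367600 to 32368399 (25 and 27) and 32463600 to 32465399 (39 and 57) had log2 ratios of -0.16, -0.19 and 0.25, all with intervals that include no difference. By library totals they were 0.16, 0.14 and 0.57, so the first pair turned direction. At Runx1, the second marked region lay from 92698000 to 92698999 and had 33 and 26 reads, so its log2 ratio was -0.64 (-1.44 to 0.15). The main region exceeded it by 0.82 (-0.00 to 1.66), which just includes no difference. A further 3 regions of Runx1 and 5 of Bach2 held 31 to 44 reads in both libraries together and were too thin to be marked.

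Around the pair of Runx1 sites about 129 kb into the gene, H3K4me3 was lower in the STAT3-deficient library. Within 1 kb of the first of them, at 92696800, there were 50 reads in wild-type and 29 in STAT3-deficient cells, with a log2 ratio of -1.08 (-1.79 to -0.39), and -0.76 (-1.47 to -0.07) by library totals. Around the second, at 92697400, there were 56 and 40, a ratio of -0.78 (-1.40 to -0.17), and -0.46 (-1.08 to 0.15) by library totals. The 2 kb spans of this pair overlap, so they are not separate evidence. Against the first span, the main region at the distal start was higher by 1.26 (0.53 to 2.02), whatever the scaling. The span was singled out among 46 sites after its values were seen. In GRCm38.p6 the distal and proximal Runx1 starts are also about 129 kb apart, so this pair may lie at or near the proximal promoter. That was not tested, because the proximal start was not placed on mm9.

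Most other sites showed no genotype difference in H3K4me3 that was detectable at this depth. Within 1 kb, the interval included no difference at 13 of 16 Runx1 sites and 28 of 30 Bach2 sites. It lay below at 3 Runx1 sites, the pair and the site from 92744050 to 92744449 (27 and 17 reads), and at 1 Bach2 site, from 32516400 (58 and 44), against 7.12% of all sites. It lay above at 1 Bach2 site, from 32438300 (38 and 72), against 1.71% of all sites. By library totals, 1 Runx1 site stayed below and 2 lay above, those at 92822150 (26 and 45) and 92823900 (128 and 185), and 2 Bach2 sites lay above, those at 32438300 and 32511350 (102 and 146). The shares of all sites by that scaling were 1.93% below and 10% above. The strongest site of both windows, at 32378150, had 22 reads in each H3K4me3 library.

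Most sites lay away from H3K4me3. Within 2 kb of a region were 4 of 16 Runx1 sites (25%) and 9 of 30 Bach2 sites (30%), against 33% of all sites. The other 12 Runx1 sites had 206 wild-type and 194 STAT3-deficient H3K4me3 reads within 1 kb in all, with a median of 16 and 14 per site. The other 21 Bach2 sites had 356 and 372, counting reads in overlapping spans repeatedly, with a median of 17 and 19. Medians over all such sites of the genome were 15 and 15. Their summed log2 ratios, -0.38 at Runx1 and -0.23 at Bach2, were close to those of all reads outside regions in the same windows, -0.33 and -0.23. By library totals the values were -0.06 and 0.09 at these sites and -0.01 and 0.09 outside regions. A narrow peak in both H3K4me3 libraries as well was called at 0 of the 16 Runx1 sites and at 1 of the 30 Bach2 sites, that at 32438300, against 12.8% of all sites.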

How the data were processed

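The authors deposited aligned reads of 25 bp, 1 line per read, with position and strand without region totals. The build was mm9 and SICER was used, per the submitters' processing notes; the aligner is not given in the sources used here. Repeated reads (same position and strand) were found 0 times, and reads on the mitochondrial genome were left out. Coordinates are printed as the files give them.

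Reads were moved 75 bp towards the fragment centre. Sites were called genome-wide in steps of 50 bp, needing reads on both strands. H3K4me3 regions were called on both libraries pooled, from 200 bp windows with at least 12 reads (Poisson p of 1e-05, mappable share 0.8), joined within 600 bp, with at least 2 windows. Intervals are exact Poisson (reads), Clopper-Pearson (ratios) and conditional odds ratio (differences of ratios) intervals. The region with the most reads in each window stood for its promoter. Named were all marked regions, the 8 sites with the largest excess per gene and sites inside marked regions. The RefSeq promoter table matched both genes. Members and lists were chosen with earlier results of these data known. The scripts were tested on simulated data. Alternatives changed the Poisson limit, read minimum, window, local background, read shift, scaling, calling library, span and background. Computations used Python 3.11.15, numpy 2.4.6, scipy 1.17.1, pandas 2.3.3 and matplotlib 3.10.9.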

Additional observations from a re-analysis of the deposited data

How the results depend on the processing

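The number of sites stayed within 1.5 times under all 6 alternatives at both genes, and so did the strong sites of Bach2. The strong sites of Runx1 fell from 13 to 5 with a Poisson p under 1e-12 and to 5 with at least 20 reads, where the top 25% is taken over fewer and stronger sites. The excess of the strongest Bach2 site was 173 with windows of 300 bp, which hold more reads by construction. That of the strongest Runx1 site stayed within its interval, but the site that ranked first changed to the pair about 129 kb into the gene with 300 bp windows and to the site at 92767600 with reads not moved. By library totals the main regions had log2 ratios of 0.50 at Runx1 and 0.10 at Bach2, and the other 5 alternatives kept both within their intervals, though the Runx1 interval lay above no change when regions were called on the wild-type library alone (0.28, 0.04 to 0.53) and the Bach2 interval then included it (-0.41 to 0.01), as it did with reads not moved (-0.40 to 0.03). With the marked region nearest the 5′ edge taken as the Bach2 promoter, an alternative chosen after the data were seen, the ratio was -0.71. No paired analysis was possible because each group has 1 library. Depth limits what the sites away from H3K4me3 can show, with medians of 14 to 19 H3K4me3 reads per 2 kb.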
